A study of Mus musculus with 2 samples.

Results

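The genes described here carry pyruvate into the mitochondrion and through the tricarboxylic acid (TCA) cycle, and connect the cycle to glutamate, aspartate, malate and citrate. They were a list of 33 gene symbols in 13 steps, found by Ensembl gene identifier among the 43346 gene entries of the tables. The cells were G1E, an immortalised mouse line labelled as a Gata1- erythroid progenitor, male, postnatal and 0 day old. GATA1 is the DNA-binding factor of red cell maturation, and the line lacks its function. The data were 2 poly(A) RNA-seq libraries of this line, replicate 1 with 61982634 expected counts and replicate 2 with 80658648, which formed 1 group with no treatment or other genotype. Both libraries are tied by their labels to the same biosample, although they are called biological replicates, so the spread between them may be purely technical.

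Pyruvate from glycolysis crosses the inner mitochondrial membrane through the mitochondrial pyruvate carrier. The pyruvate dehydrogenase complex turns it into acetyl-CoA, and pyruvate carboxylase turns it into oxaloacetate. Citrate synthase joins these products, and the cycle oxidises citrate back to oxaloacetate, while glutamate enters as 2-oxoglutarate. In erythroid cells succinyl-CoA from the cycle is also a substrate of haem synthesis.

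Levels are TPM, abundances scaled by transcript length so that the entries of a library sum to a fixed total, and errors are SD over the libraries (n = 2). In RNA from a culture, fewer cells with a transcript and less of it per cell cannot be told apart. Expected counts are estimated read-pair counts per gene, and detected means 1 TPM or more in both libraries. A ratio of genes within a library was called beyond the spread where both libraries gave its direction and the mean log2 ratio exceeded 2 SD. With 2 libraries no two-sided exact test over them can go below p = 0.5, so no p is given for levels or ratios.

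Of the 33 genes, 32 were detected, and the exception was Pdk4. That is 97.0%, against 40.0% of the 21474 protein-coding genes in the tables. There were 25 genes at 10 TPM or more in both libraries and 3 at 100 TPM or more, namely Mdh2, Dlst and Idh3b. The median over the 33 was 23.97 TPM in replicate 1 and 23.02 TPM in replicate 2, and over the 8581 detected protein-coding genes it was 16.97 and 19.02. All 33 together held 0.161% of TPM in replicate 1 and 0.186% in replicate 2. The order of the genes was alike in the libraries, with a Spearman coefficient of 0.952 over the 33 genes, which describes 2 libraries and is no test. Among the 31 pairs of detected genes next to each other in the order of mean TPM, 8 differed beyond the spread. Levels of the 32 detected genes went with the GC content of the leading transcript, with Spearman coefficients of 0.43 in replicate 1 and 0.46 in replicate 2. Over 8500 detected protein-coding genes they were 0.40 and 0.36, and the part of base composition in the order of levels was not tested.

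The erythroid label was set beside lists of marker genes. All 10 erythroid progenitor markers were detected, between 48.8 and 1232 TPM. None of 15 markers of T cells, B cells, macrophages, neutrophils, endothelium, fibroblasts and pluripotent cells was detected, and they summed to 0.96 TPM in replicate 1 and 1.44 TPM in replicate 2. The highest was the neutrophil gene Elane, at 0.76 and 1.19 TPM. Cd3e, Cdh5, Pecam1, Pou5f1 and Nanog were at 0 in both. No list for mast cells, basophils or megakaryocytes was included, so these values cannot tell the line from such cells.

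**Figure D1:**
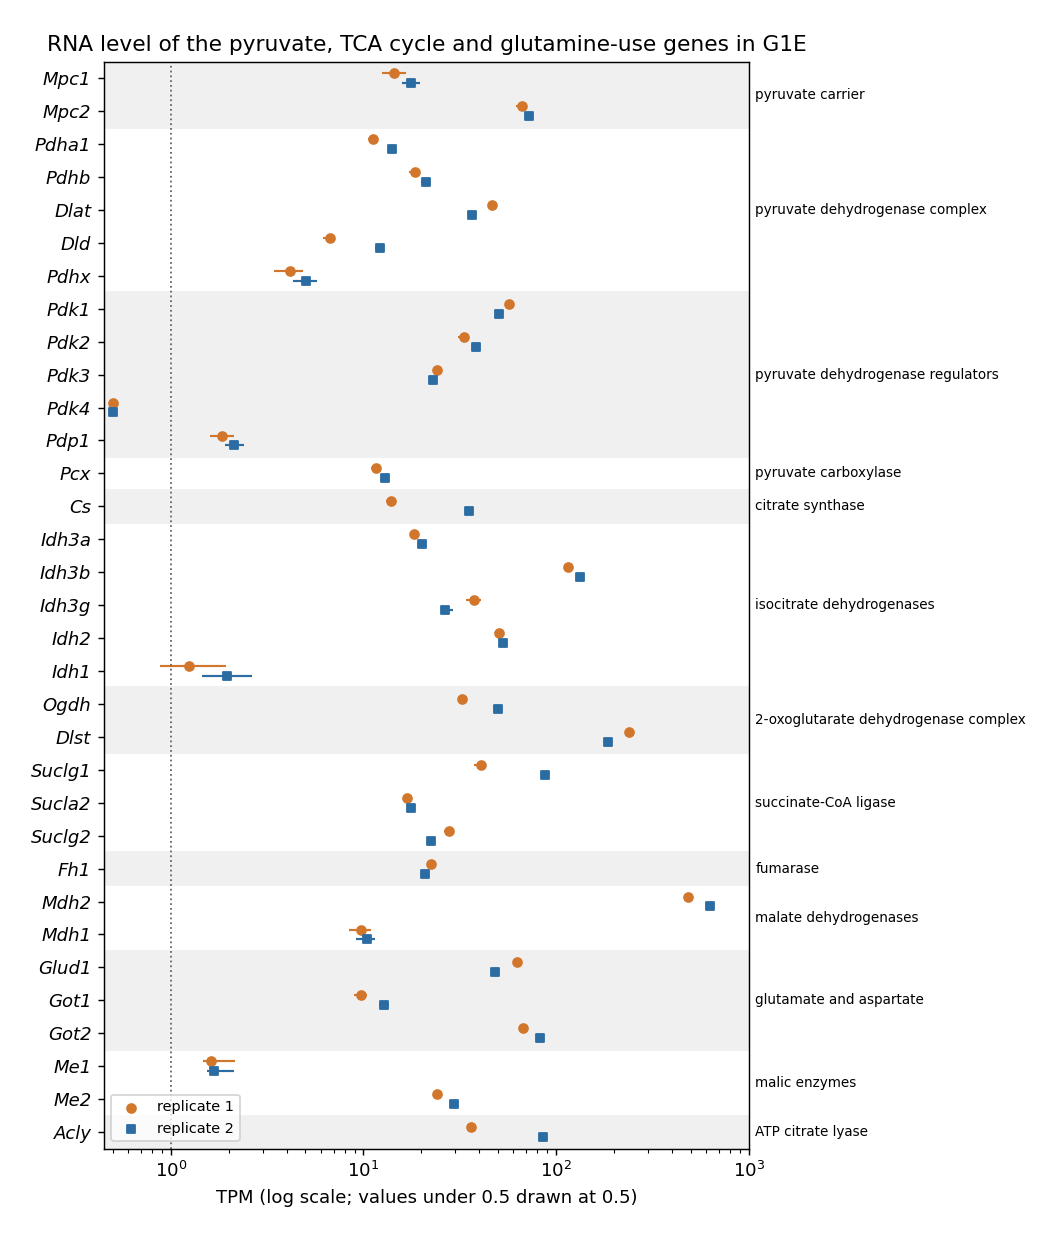
TPM (log scale) of each gene in the order of the steps, with replicate 1 as circles, replicate 2 as squares and horizontal lines for the deposited interval, which need not hold the value. The dotted line marks 1 TPM. Mdh2, Dlst and Idh3b lie above 100 TPM in both libraries, Pdk4 lies at the left edge, and Cs, Suclg1 and Acly have the widest gaps between libraries.

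Both subunits of the pyruvate carrier were present, with Mpc2 above Mpc1. The carrier works as a heteromer of MPC1 and MPC2. Mpc2 (chromosome 1, 165460637 to 165481214, plus strand, mm10) was at 66.39 TPM in replicate 1 and 72.54 TPM in replicate 2, and Mpc1 (chromosome 17, 8282904 to 8297661, plus strand) at 14.42 and 17.66. Mpc2 exceeded Mpc1 4.60-fold and 4.11-fold, a log2 ratio of 2.12 ± 0.12, beyond the spread. Per kilobase of the longest coding transcript the counts gave 20.95-fold and 12.2-fold, so the size of this ratio depended on the transcripts to which reads were given. The Mpc1 level rested on 277 expected counts in replicate 1 and 464 in replicate 2, and a 383-base transcript annotated as retained intron took 81.7% and 75.6% of it. Mpc1 overlaps the gene 4930506C21Rik on the opposite strand by 480 bases, and that gene had 0 counts in both libraries. The pseudogene Mpc1-ps held 1.03 counts in replicate 1 and 10.3 in replicate 2.

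Within the pyruvate dehydrogenase complex the core gene Dlat was highest and the gene of its binding protein, Pdhx, lowest. PDHA1 and PDHB form the E1 decarboxylase, DLAT is the E2 acetyltransferase that builds the core, DLD is the E3 dehydrogenase, and PDHX ties E3 to the core. Dlat (chromosome 9, 50634633 to 50659780, minus strand) was at 46.48 TPM in replicate 1 and 36.49 TPM in replicate 2. Pdhb (chromosome 14, 8165996 to 8173025, minus strand) was at 18.50 and 21.12 TPM, and Pdha1 (chromosome X, 160122209 to 160138413, minus strand) at 11.16 and 14.14.

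Pdhb exceeded Pdha1, its partner in the same enzyme, by 1.66-fold in replicate 1 and by 1.49-fold in replicate 2, which is 0.65 ± 0.11 on the log2 scale. This small difference was beyond the spread on the TPM scale and also per kilobase, at 1.59-fold and 1.43-fold. Dld (chromosome 12, 31331277 to 31351453, minus strand) was at 6.67 and 12.14 TPM, from 781 and 1797 counts. Pdhx (chromosome 2, 103021075 to 103073513, minus strand) was at 4.16 and 5.05 TPM, from 230 and 415 counts.

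Dlat stood 6.97-fold over Dld in replicate 1 and 3.01-fold in replicate 2, and 11.2-fold and 7.23-fold over Pdhx. Over Pdhb it was 2.51-fold and 1.73-fold. All these orders were beyond the spread, and the spread of Dlat over Dld was wide, a log2 ratio of 2.19 ± 0.86. DLD serves the pyruvate, 2-oxoglutarate and branched-chain dehydrogenases and the glycine cleavage system alike. Pdha1 overlaps Map3k15 on the opposite strand by 603 bases, and Map3k15 had 1 count in each library.

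Of the kinase genes that switch the complex off, 3 of 4 were higher by TPM than Pdp1 and Pdp2, the genes of the phosphatases that switch it on. PDK1 to PDK4 phosphorylate PDHA1 and inactivate it, and PDP1 and PDP2 remove the phosphate. Pdk1 (chromosome 2, 71873224 to 71903858, plus strand) was at 57.23 TPM in replicate 1 and 50.40 TPM in replicate 2. Pdk2 (chromosome 11, 95026258 to 95041354, minus strand) was at 33.30 and 38.37 TPM, and Pdk3 (chromosome X, 93764607 to 93832201, minus strand) at 23.97 and 23.02. Pdp1 (chromosome 4, 11958184 to 11966452, minus strand) was at 1.85 and 2.14 TPM, from 190 and 292 counts, percentile 7.11 of the detected genes. Pdp2, which is not among the 33, was above Pdp1 at 3.76 TPM in replicate 1 and 5.61 in replicate 2, all on a coding transcript. The remaining kinase gene, Pdk4 (ENSMUSG00000019577.4, chromosome 6, 5483351 to 5496309, minus strand), is known from muscle and liver as the form induced by fasting. It had 1 count in replicate 1, which is 0.0161 CPM, the depth-scaled count, and 0 in replicate 2, where a count of 0 allows up to 0.0372 CPM by counting error. Pdk3 had 42.5 and 39.7 CPM.

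The 250 bases before the RefSeq start of each kinase gene are shown because 3 paralogues were expressed and the fourth was not. Pdk1 and Pdk2 have 2 RefSeq starts each, and the start nearest to that of the longest coding transcript was taken. For Pdk1 that transcript held 3.55% of TPM in replicate 1 and 6.76% in replicate 2, so the start shown need not be the one in use. They are from RefSeq on GRCm38.p6 and run 5′ to 3′ on the strand of the gene, with capitals for each C that is followed by G and for that G.
Pdk1, chr2:71872974-71873223, plus strand: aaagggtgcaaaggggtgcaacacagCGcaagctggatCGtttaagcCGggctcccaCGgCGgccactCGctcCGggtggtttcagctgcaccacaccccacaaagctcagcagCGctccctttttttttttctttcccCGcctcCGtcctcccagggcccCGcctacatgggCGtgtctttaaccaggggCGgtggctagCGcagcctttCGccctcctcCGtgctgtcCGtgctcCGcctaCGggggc
Pdk2, chr11:95041372-95041621, minus strand: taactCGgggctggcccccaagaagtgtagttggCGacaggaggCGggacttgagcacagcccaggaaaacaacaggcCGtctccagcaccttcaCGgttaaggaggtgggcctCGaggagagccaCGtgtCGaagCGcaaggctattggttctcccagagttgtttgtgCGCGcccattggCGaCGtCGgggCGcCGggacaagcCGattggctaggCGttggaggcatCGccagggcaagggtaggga
Pdk3, chrX:93832151-93832400, minus strand: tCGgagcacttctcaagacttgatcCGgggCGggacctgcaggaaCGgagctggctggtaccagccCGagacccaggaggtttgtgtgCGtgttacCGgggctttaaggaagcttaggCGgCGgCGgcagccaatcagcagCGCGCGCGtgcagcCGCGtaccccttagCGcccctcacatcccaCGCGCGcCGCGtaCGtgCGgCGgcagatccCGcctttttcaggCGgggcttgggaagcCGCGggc
Pdk4, chr6:5496279-5496528, minus strand: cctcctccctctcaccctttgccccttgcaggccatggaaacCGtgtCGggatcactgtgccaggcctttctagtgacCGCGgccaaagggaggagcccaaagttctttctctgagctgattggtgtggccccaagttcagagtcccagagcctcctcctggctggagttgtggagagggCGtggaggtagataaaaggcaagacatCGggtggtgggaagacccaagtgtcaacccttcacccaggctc
The stretches of Pdk1 and Pdk2 hold 19 CG pairs each and that of Pdk3 holds 29, while that of Pdk4 holds 6, which is also the median of all 32851 RefSeq stretches of this length. Pdk3 lies at percentile 93.2 of that set, Pdk1 and Pdk2 at 80.3 and Pdk4 at 49.6. Of the detected genes of the list with such a stretch, Me1 had 2 CG pairs and every other had more than 6. Whether the number of CG pairs goes with expression was not tested. The motif AGATAA, on either strand, occurs once in the Pdk4 stretch and in 9.99% of all stretches, and TGATAA, in 7.94% of all, occurs in none of the kinase stretches. CACGTG occurs once in the Pdk2 stretch and in 6.02% of all. CCAAT, on either strand, occurs in 33.8% of all stretches and in 16 of the 30 genes of the list that had an entry, whose median number of CG pairs was 17.5. Suclg2 is among the 16, although its stretch lies 25964 bases from the start of its longest coding transcript. Each motif was searched on both strands, and no pair of them shares its whole string, so their counts are separate. A match is a description of letters, not a site.

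The order of the expressed kinases depended on which transcripts were counted. By TPM, Pdk1 took 49.98% of the kinase sum in replicate 1 and 45.1% in replicate 2, Pdk2 29.1% and 34.3%, and Pdk3 20.9% and 20.6%. Pdk1 was 1.72-fold and 1.31-fold over Pdk2, and Pdk2 was 1.39-fold and 1.67-fold over Pdk3, both beyond the spread. A 1060-base processed transcript took 78.7% and 64.4% of Pdk1 TPM, and the single coding transcript, of 5185 bases, took 3.55% and 6.76%. Counting only transcripts annotated as protein-coding, Pdk1 held 4.02% of the sum in replicate 1 and 5.83% in replicate 2, and Pdk1 over Pdk2 was 0.0827-fold and 0.106-fold. Per kilobase of the longest coding transcript the Pdk1 share was 23.5% and 23.2% and the ratio to Pdk2 was 0.590-fold and 0.512-fold. Pdk1 over Pdk2 therefore changed direction between scales, while the near absence of Pdk4 did not. Pdk1 over Pdp1 was 30.9-fold and 23.6-fold by TPM, 17.7-fold and 16.1-fold per kilobase, and 1.10-fold and 1.59-fold by coding transcripts. By coding transcripts Pdk1, at 2.03 TPM in replicate 1 and 3.41 in replicate 2, was below Pdp2 in both. Pdk2 and Pdk3, whose coding transcripts took 73.8% to 100% of TPM, each stayed above 20 TPM by coding transcripts alone in both libraries.

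**Figure D2:**
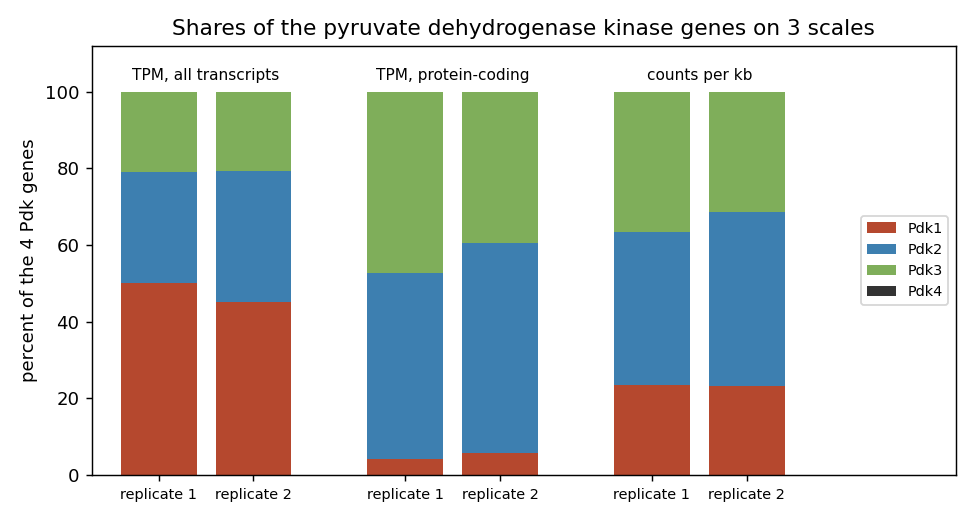
Percent of the summed level of the 4 kinase genes held by each, in replicate 1 and replicate 2, by TPM of all transcripts, TPM of protein-coding transcripts and counts per kilobase of the longest coding transcript. Pdk1 holds 49.98% and 45.1% on the first scale and 4.02% and 5.83% on the second, and Pdk4 is too small to see on any.

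Pyruvate carboxylase and citrate synthase, which use pyruvate and acetyl-CoA to feed the cycle, were both detected at moderate levels. Pcx (chromosome 19, 4510472 to 4621752, plus strand) was at 11.57 TPM in replicate 1 and 12.89 TPM in replicate 2, with an effective length of about 4000 bases and 2588 and 3646 counts. Cs (ENSMUSG00000005683.7, chromosome 10, 128337734 to 128362479, plus strand) was at 13.83 TPM in replicate 1 and 35.37 TPM in replicate 2. Pcx was nearly level between the libraries, whereas Cs was the gene of the list with the largest difference in scaled counts. Csl, a citrate synthase like gene, had no counts in either library.

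For isocitrate oxidation, the beta subunit gene of the NAD-dependent enzyme led and the cytosolic NADP-dependent isozyme was near the detection limit. IDH3A, IDH3B and IDH3G form the NAD-dependent enzyme of the cycle, with IDH3A as the catalytic subunit, IDH2 is the mitochondrial NADP-dependent enzyme and IDH1 the cytosolic one. Idh3b (chromosome 2, 130279309 to 130284547, minus strand) was at 115.75 TPM in replicate 1 and 133.09 TPM in replicate 2, percentile 87.8 of detected genes. Idh3a (chromosome 9, 54586334 to 54604661, plus strand) was at 18.39 and 20.08 TPM. Idh3b exceeded Idh3a 6.29-fold and 6.63-fold, a log2 ratio of 2.69 ± 0.05, the tightest of the 17 ratios examined, and it was between 5.87-fold and 6.29-fold by coding transcripts and per kilobase. Idh3b meets Nop56 on the opposite strand over 5 bases, and Nop56 was at 92.7 and 103.2 TPM.

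Idh3g (chromosome X, 73778963 to 73786897, minus strand) was at 37.52 TPM in replicate 1 and 26.56 TPM in replicate 2, and its order against Idh3a was not beyond the spread, at 2.04-fold and 1.32-fold. Its expected counts ran the other way, 1283 in replicate 1 and 2202 in replicate 2. The modelled effective length was 612 bases in replicate 1 and 1172 in replicate 2. A 395-base processed transcript held 59.2% of Idh3g TPM in replicate 1 and 0.42% in replicate 2. The coding transcript of 1331 bases held 35.6% in replicate 1 and 93.6% in replicate 2.

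Idh2 (chromosome 7, 80094846 to 80115392, minus strand) was at 50.25 TPM in replicate 1 and 53.26 TPM in replicate 2, and Idh1 (chromosome 1, 65158616 to 65186500, minus strand) at 1.24 and 1.96. Idh1 rested on 84 and 153 counts and lay at percentile 3.85 of detected genes. Idh2 exceeded Idh1 40.5-fold and 27.2-fold, a log2 ratio of 5.05 ± 0.41, beyond the spread.

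The 2-oxoglutarate dehydrogenase complex showed a high core gene again. OGDH is the E1 enzyme that decarboxylates 2-oxoglutarate and DLST the E2 succinyltransferase core. Dlst (ENSMUSG00000004789.9, chromosome 12, 85110833 to 85134845, plus strand) was at 238.67 TPM in replicate 1 and 185.71 TPM in replicate 2, percentile 92.8, and all of it was given to a single coding transcript. Ogdh (chromosome 11, 6291633 to 6356642, plus strand) was at 32.58 and 49.98 TPM. Dlst exceeded Ogdh 7.33-fold and 3.72-fold, a log2 ratio of 2.38 ± 0.69, beyond the spread. By coding transcripts Dlst ranked first of the 33 genes and Mdh2 second in both libraries, and by TPM of all transcripts the order of those genes was the reverse. Nearly the whole Ogdh level came from coding transcripts, of which the leading one took 54.1% in replicate 1 and 78.7% in replicate 2.

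Succinate-CoA ligase, the step that makes a nucleotide triphosphate directly, was represented by its shared alpha subunit and both beta subunits. SUCLG2 gives the GTP-forming enzyme and SUCLA2 the ATP-forming one. Suclg2 (chromosome 6, 95473009 to 95718800, minus strand) was at 27.63 TPM in replicate 1 and 22.44 TPM in replicate 2, and Sucla2 (chromosome 14, 73525319 to 73596142, plus strand) at 16.87 and 17.67. Suclg2 was 1.64-fold and 1.27-fold over Sucla2, a log2 ratio of 0.53 ± 0.26, just beyond the spread, and with the deposited posterior mean values it was not. Suclg1 (chromosome 6, 73248382 to 73276911, plus strand), the alpha subunit gene, was at 40.72 and 87.19 TPM. Over the sum of the beta subunit genes it was at 0.915-fold in replicate 1 but at 2.17-fold in replicate 2, so its place against them was not settled by these libraries.

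Fumarase and mitochondrial malate dehydrogenase complete the cycle. Fh1 (chromosome 1, 175600374 to 175625635, minus strand) was at 22.41 TPM in replicate 1 and 20.97 TPM in replicate 2. Mdh2 (ENSMUSG00000019179.6, chromosome 5, 135778480 to 135790398, plus strand) was the highest of the 33 genes, at 484.99 and 628.56 TPM from 20204 and 32073 counts, percentile 97.4 of detected genes. Mdh1 (chromosome 11, 21556787 to 21572367, minus strand), the cytosolic isozyme of the malate-aspartate shuttle, was at 9.72 and 10.39 TPM from 392 and 544 counts. Mdh1 and the gene Wdpcp overlap by 52 bases on opposite strands, and Wdpcp had 9 counts in replicate 1 and 30 in replicate 2. Mdh2 exceeded Mdh1 49.9-fold and 60.5-fold, a log2 ratio of 5.78 ± 0.20, beyond the spread. Transcripts annotated as retained intron held 71.3% of Mdh2 TPM in replicate 1 and 69.8% in replicate 2, and its coding transcript held 24.4% and 26.9%.

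Genes that link the cycle to glutamate and aspartate were led by mitochondrial forms. Glud1 (chromosome 14, 34310727 to 34345265, plus strand), whose product glutamate dehydrogenase interconverts glutamate and 2-oxoglutarate, was at 62.82 TPM in replicate 1 and 48.08 TPM in replicate 2. Got2 (chromosome 8, 95864134 to 95888547, minus strand), the mitochondrial aspartate aminotransferase, was at 67.39 and 82.46 TPM, and Got1 (chromosome 19, 43499752 to 43524605, minus strand), the cytosolic one, at 9.68 and 12.81. Got2 exceeded Got1 6.96-fold and 6.44-fold, a log2 ratio of 2.74 ± 0.08, beyond the spread. A pseudogene, Got2-ps1, held 37.3 and 37.7 counts.

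The malic enzymes, which turn malate into pyruvate, showed the same split. Me2 (chromosome 18, 73769903 to 73815449, minus strand), the mitochondrial NAD-dependent enzyme, was at 24.05 TPM in replicate 1 and 29.41 TPM in replicate 2, and Me1 (chromosome 9, 86581371 to 86695953, minus strand), the cytosolic NADP-dependent one, at 1.61 and 1.68. Me2 exceeded Me1 14.9-fold and 17.5-fold, a log2 ratio of 4.02 ± 0.16, beyond the spread. Acly (chromosome 11, 100476353 to 100528000, minus strand), whose product ATP citrate lyase returns exported citrate to cytosolic acetyl-CoA, was at 36.25 and 85.46 TPM.

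In each of the 4 pairs of a mitochondrial and a cytosolic isozyme, the mitochondrial gene was higher in both libraries. It took 98.0% and 98.4% of the Mdh pair in replicate 1 and replicate 2, 97.6% and 96.5% of the Idh2 and Idh1 pair, 93.7% and 94.6% of the Me pair, and 87.4% and 86.6% of the Got pair. The direction was the same on the other scales, and the sizes were not. By coding transcripts Mdh2 over Mdh1 was 23.8-fold and 27.9-fold, Idh2 over Idh1 8.11-fold and 5.24-fold, and Got2 over Got1 55.2-fold and 44.8-fold. Per kilobase of the longest coding transcript they were 75.1-fold and 85.9-fold, 71.6-fold and 49.8-fold, and 10.3-fold and 9.42-fold. Me2 over Me1 had nearly the same value on all of them, 14.8-fold to 17.5-fold. These are ratios of RNA, and the pairs were not compared with other pairs of isozymes.

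**Figure D3:**
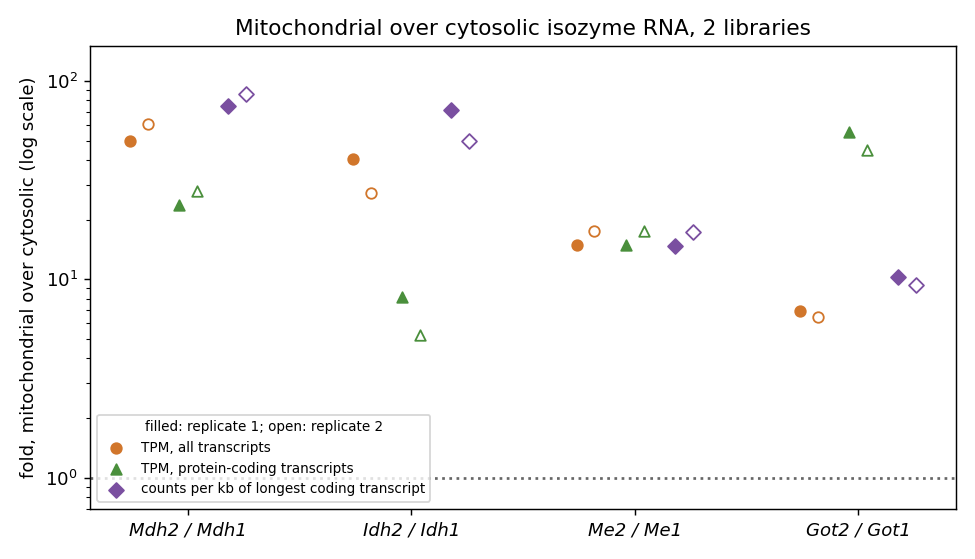
Fold of mitochondrial over cytosolic isozyme RNA (log scale) for 4 pairs, with replicate 1 filled and replicate 2 open, by TPM of all transcripts, TPM of protein-coding transcripts and counts per kilobase of the longest coding transcript; the dotted line marks equal levels. All points lie above that line, from 5.24-fold for Idh2 over Idh1 by coding transcripts to 85.9-fold for Mdh2 over Mdh1 per kilobase.

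For several genes most of the level was given to transcripts that are not annotated as coding. In both libraries coding transcripts held under 50% of the gene's TPM for 6 of the 32 detected genes, and 90% or more for 22. The 6 were Pdk1, Got1 (12.5% in replicate 1 and 14.3% in replicate 2), Mpc1 (18.1% and 24.1%), Idh2 (20.02% and 19.3%), Mdh2 and Suclg1 (31.5% and 45.0%). For Idh2 and Got1 the leading transcript carries the annotation nonsense-mediated decay, with 78.9% and 72.6% of Idh2 and 86.2% and 84.9% of Got1. The leading Idh2 transcript of 1790 bases is close in length to the coding one of 1745 bases, and that of Got1 has 1373 bases against 2058. How reads were divided between overlapping transcripts comes from the deposited estimates and was not tested here. Effective lengths differed by over 1.2 times between the libraries for Mpc2, Pdk1 and Idh3g. Mpc2 had 1669 bases in replicate 1 and 1174 in replicate 2, with 42.6% and 85.6% of its TPM on coding transcripts.

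**Figure D4:**
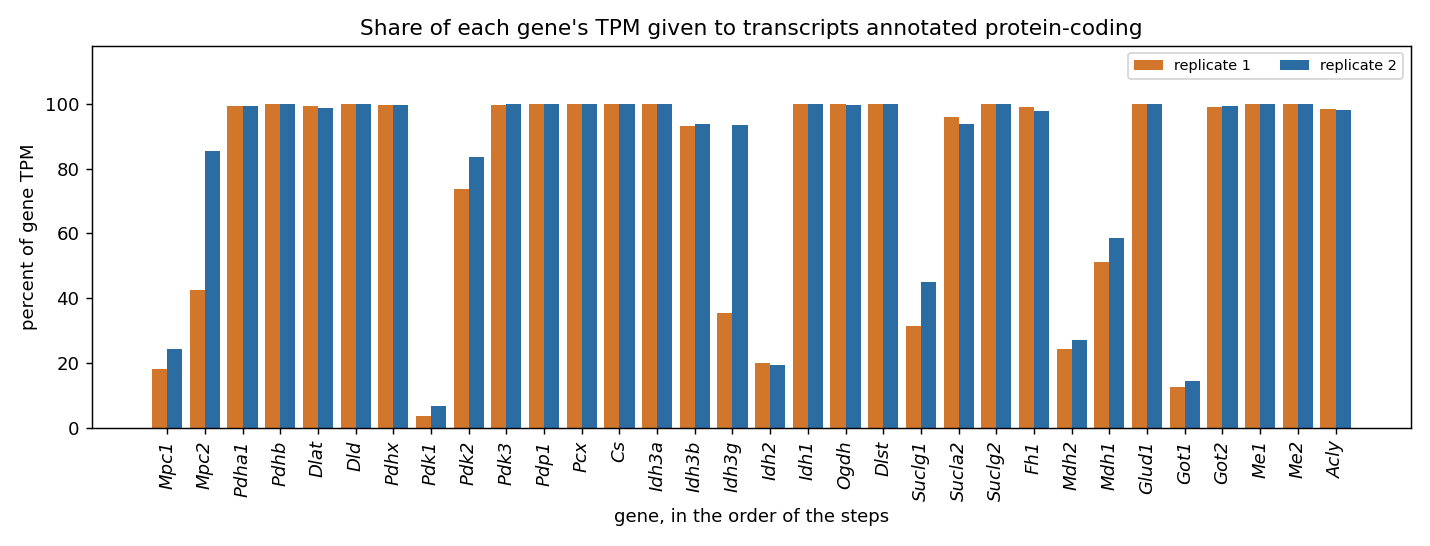
Percent of each detected gene's TPM that lies on transcripts annotated as protein-coding, in replicate 1 and replicate 2, in the order of the steps. Bars of 22 genes reach 90% or more in both libraries, and those of Pdk1, Got1, Mpc1, Idh2, Mdh2 and Suclg1 stay under 50%.

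The libraries lay within 2-fold for most of the list and differed for Cs, Suclg1 and Acly, which are the genes of citrate formation, of succinyl-CoA use and of citrate cleavage. Expected counts of Cs were 2073 in replicate 1 and 6704 in replicate 2, those of Suclg1 1704 and 5304, and those of Acly 7436 and 22875. All 3 were lower in replicate 1. After scaling by TMM, which sets the libraries to a common level through the bulk of genes, the log2 ratio of replicate 1 to replicate 2 was -1.19 for Cs, -1.14 for Suclg1 and -1.12 for Acly. A two-sided exact conditional binomial test, adjusted by Benjamini-Hochberg over all 11636 genes tested, gave adjusted p = 7.1e-268 for Cs and 6.3e-197 for Suclg1, and a value for Acly too small to represent. Genes were called at an adjusted p under 0.05 and at least 2-fold.

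Of the 32 genes tested, 3 were called lower in replicate 1 and 0 higher. Among all tested genes 5.62% were called in either direction and 3.82% lower in replicate 1, and the count in the list rests on 3 genes. All tested genes include genes of low count. Among the 8581 detected protein-coding genes, 52 were called higher and 162 lower in replicate 1. The test covers counting error and compares these libraries, not conditions. An edgeR test, given next, took its spread from these same 2 libraries, so the difference under test is part of that spread. This negative binomial exact test in edgeR uses the common coefficient of variation of 0.224 between these libraries. It called none of the 3, with adjusted p of 0.405, 0.501 and 0.534 for Cs, Suclg1 and Acly. That test called 0.98% of all genes tested, so 0 of 32 is near its background. At 1.5-fold the binomial test called 4 of the 32, with Dld added, against 14.5% of all genes tested, and with no fold requirement 23 of the 32, against 64.4%, so both shares were near those of all genes. The same 3 were called with total counts, DESeq2 size factors, no count filter, a minimum of 50 counts and a GC correction, where 6.6%, 5.54%, 4.1%, 4.16% and 4.91% of all genes tested were called, in that order. Suclg1 differed also in its transcripts, as one annotated for nonsense-mediated decay held 26.5% in replicate 1 and 0.70% in replicate 2. For Acly a coding transcript of 4393 bases held 25.7% in replicate 1 and 0% in replicate 2, and another of 4426 bases held 24.1% in replicate 1 and 45.7% in replicate 2. Cs has a single annotated transcript.

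The other 29 tested genes lay within 2-fold. Dld was the next lowest in replicate 1, with a log2 ratio of -0.70, followed by Ogdh at -0.51. Highest in replicate 1 were Glud1 at 0.55, Mpc2 at 0.54, and Dlst and Dlat at 0.52 each. The median log2 ratio was -0.08 over the 32 genes and -0.01 over all genes tested. Of the 32, 12.5% differed by over 1.5-fold, against 19.0% of all genes tested, which include genes of low count. Among the 8581 detected protein-coding genes, which are closer in kind to the list, the share was 10.8%. By the deposited intervals of TPM, whose level the sources used here do not give, 6 of the 32 were higher in replicate 1 and 15 higher in replicate 2 without overlap, and 11 overlapped. Over all genes tested these shares were 17.4% higher in replicate 1 and 36.4% higher in replicate 2, a lean in the same direction. GC content went with the log2 ratio with a Spearman coefficient of -0.16 over the 32 genes and 0.27 over detected protein-coding genes.

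**Figure D5:**
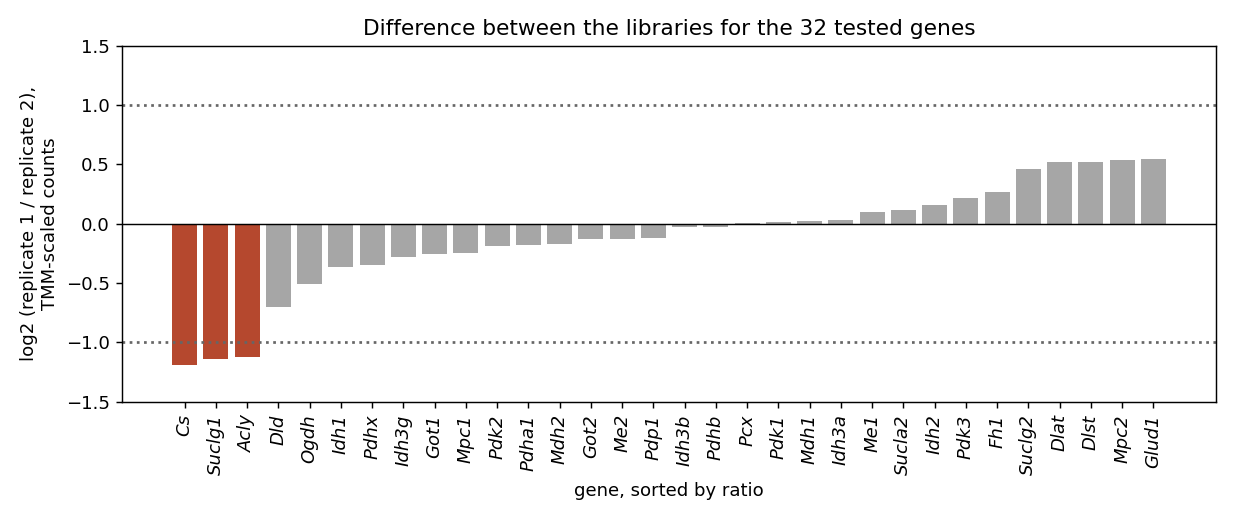
Log2 ratio of replicate 1 to replicate 2 in TMM-scaled counts for the 32 tested genes, sorted, with dotted lines at 2-fold and called genes in red. Cs, Suclg1 and Acly lie below the lower line, between -1.12 and -1.19, and no gene lies above the upper line.

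A further 40 genes of the same metabolism, which complete the steps around the 33, were partly expressed. Of these 29 were detected. The highest was Ldha, which makes the lactate dehydrogenase subunit that favours lactate, at 2026.72 TPM in replicate 1 and 2111.70 TPM in replicate 2. Its partner gene Ldhb was at 0.05 and 0.02 TPM. Ldha exceeded Mdh2, the highest of the 33 genes, 4.18-fold and 3.36-fold. The citrate carrier Slc25a1 was at 223 ± 19.8 TPM and stood 6.54-fold over Acly in replicate 1 and 2.45-fold in replicate 2, a ratio that carries the difference in Acly between the libraries.

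Glul, which makes glutamine from glutamate, was at 72.21 TPM in replicate 1 and 54.48 TPM in replicate 2. Its expected counts ran the other way, 5399 and 10143, a log2 ratio of -0.41 after TMM scaling. The modelled effective length of Glul was 1339 and 2633 bases, and its leading transcript held 38.0% and 99.5% of TPM. The glutamate carrier Slc25a22 was at 53.9 ± 1.10 TPM, of which coding transcripts held 18.6% in replicate 1 and 20.9% in replicate 2. The aminotransferase genes Gpt and Gpt2 were not detected in both libraries, Gpt being at 0.85 and 1.31 TPM and Gpt2 at 1 count in replicate 1 and 0 in replicate 2.

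In the cycle itself, the succinate dehydrogenase genes Sdha to Sdhd were all detected. Sdhb was at 124 ± 28.0, Sdhc at 66.04 in replicate 1 and 159.28 in replicate 2, Sdha at 52.6 ± 11.2 and Sdhd at 36.9 ± 9.34 TPM. Coding transcripts held 23.5% of Sdha TPM in replicate 1 and 32.8% in replicate 2, 59.6% and 54.9% of Sdhb, and all of Sdhc and Sdhd. By coding transcripts Sdha, at 10.5 and 19.9 TPM, was below Sdhd, at 30.32 and 43.53, so their order depended on the transcripts counted. Of the 40 genes 32 were tested between the libraries, and only Sdhc was called, lower in replicate 1 with a log2 ratio of -1.22. That call is from the binomial test, which covers counting error only and called 5.62% of all genes tested. The 2-oxoglutarate carrier Slc25a11 was at 53.9 ± 7.86 TPM, of which coding transcripts held 35.8% in replicate 1 and 31.0% in replicate 2. Genes not detected were Pck1, Pdha2 and Csl, at 0 counts, and Me3, Ldhb, Gpt, Gpt2, Dhtkd1, Ogdhl, Adhfe1 and Lipt1, so Me2 was the detected mitochondrial malic enzyme gene and Me3 had 1 count in replicate 1 and 2 in replicate 2.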

How the data were processed

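RNA from 2 libraries of 1 group was used, with replicate numbers from the labels. Per the deposited descriptions, the tables were made on assembly mm10 with annotation M4 from a transcriptome alignment of each library alone. The aligner, the counting tool and whether counting used strand are not stated in the labels, the file headers or the descriptions (not given in the sources used here). The authors deposited expected counts (estimated read pairs that need not be whole), TPM (scaled by effective length and library total, per the file headers), FPKM, posterior mean versions of these values, a score on the TPM scale that bounds an interval of each TPM, and the percent of gene TPM given to each transcript.

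From these deposited values, symbols, gene types and positions were added by Ensembl identifier from GENCODE M21 (98.0% of 43346 entries matched). Shares, ratios, means and SD were computed from TPM. Expected counts were rounded for the library comparison, an exact conditional binomial test on totals scaled by TMM (edgeR 4.0.16, R 4.3.3, factors 0.960 and 1.04), limited to genes that reached 10 counts in either library. It was tried on simulated data that held counting error only, so that trial does not cover the wider spread between these libraries. DESeq2 1.42.0 size factors, edgeR's exact test, a lowess with span 0.3 on GC content and other thresholds were alternatives. The coefficient of variation in edgeR's test was estimated from the same 2 libraries as 1 group, so it is no independent measure of spread. Where a library had 0 counts, the limit is 3 counts. Such limits hold for counting error alone, because PCR copies of a molecule were not told apart by identifiers. Other steps used Python 3.11.15, pandas 2.3.3, SciPy 1.17.1, statsmodels 0.14.6 and matplotlib 3.10.9. Promoter stretches are from RefSeq on GRCm38.p6.

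Named were all 33 genes, and of 40 others the 10 of highest mean TPM and those alone in their step; Pdp2, Sdhd, Gpt, Gpt2 and the undetected genes were added after their values were seen, and some genes that the rule names are not reported here. The genes, lists and tests were chosen with earlier results of these data known.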

Additional observations from a re-analysis of the deposited data

How the results depend on the processing

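Leaving out replicate 1 or replicate 2 changed the direction of none of the 17 ratios, but a single library gives no spread. No paired analysis was possible because the libraries form 1 group. Of the 17 log2 ratios by TPM, those that changed direction were Pdhb to Pdha1 by expected counts (-0.35), Idh3g to Idh3a by expected counts (-0.70) and by protein-coding transcripts only (-0.078), and Pdk1 to Pdk2 by protein-coding transcripts only (-3.42) and by counts per kilobase of the longest coding transcript (-0.86). Expected counts are not scaled by length. Ratios no longer beyond the spread were Pdk2 to Pdk3 by expected counts (0.41), by coding transcripts (0.26) and per kilobase (0.32), Pdk1 to Pdp1 by coding transcripts (0.40), and Suclg2 to Sucla2 by posterior mean TPM (0.51); the cause was not tested. The scales by coding transcripts and per kilobase were chosen after seeing the data. Of the 33 levels, 14 moved by more than their SD with FPKM, 2 with posterior mean TPM, 11 with coding transcripts only, and 29 when TPM was rescaled without ribosomal protein, histone and mitochondrial genome genes, which multiplied TPM by 1.51 in replicate 1 and 1.47 in replicate 2. The exact test called 3 of the 33 genes between the libraries, the same 3 with total counts, DESeq2 size factors, no count filter, a minimum of 50 counts and the GC correction, and 4, with Dld added, at 1.5-fold, where 14.5% of all genes tested were called. With no fold requirement it called 23, 9 higher and 14 lower in replicate 1, against 64.4% of all. edgeR's exact test, which adds the spread between these libraries, called 0 of the list, against 0.98% of all genes tested. Depth limits Pdk4, with 1 count in replicate 1 and 0 in replicate 2, and Idh1, with 84 and 153.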
